A study of Mus musculus with 6 samples.

Results

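The B lineage of the colon was followed through 33 genes, 22 of follicles and B cells and 11 of plasma cells and IgA transport, among 19949 genes listed in at least 1 library. The members were named from textbook roles in the B lineage, and the choice was made with earlier results of these data known. All 33 were detected and passed the filter on low counts, which left 15066 genes for testing. The tissue was colon of STAT6-/- BALB/c mice (3 libraries) and of wild-type (WT) BALB/c mice (3 libraries), aged 6 to 8 weeks. Both groups had drunk 3% dextran sulfate sodium (DSS), which injures the colonic epithelium, for 3 days, so the data hold no comparison with uninjured colon. STAT6 is missing from the whole animal in such mice, so that a difference may arise in B cells or in any other cell. Per the labels' protocols, the proximal part was taken and its inner face scraped to remove contents and mucus before the colon was cut up. Whether the 3 libraries of a genotype came from separate animals is not given in the sources used here, so that p-values measure the spread between these samples, which may be technical.

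B cells of the gut gather in follicles, where stromal cells that make the chemokine CXCL13 hold B cells bearing its receptor CXCR5. Activated B cells leave as plasmablasts and settle in the lamina propria as plasma cells, which secrete IgA joined by the J chain. Epithelial cells then carry that IgA into the lumen on the polymeric immunoglobulin receptor. Follicles are scattered along the colon, while plasma cells line all of it. STAT6 relays interleukin-4 and interleukin-13, and in B cells interleukin-4 drives switching to IgE and IgG1. In pieces of whole tissue, more cells of a type and more RNA per cell cannot be told apart.

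The libraries held 17122315 to 19555450 expected counts. Stat6 stood at 49.9, 38.4 and 53.1 CPM (the gene's share of a library's counts, TMM-scaled) in STAT6-/- replicates 1, 2 and 3, against 91.6, 104 and 88.7 CPM in WT replicates 1, 2 and 3. Stat6 was thus lower in all 3 STAT6-/- libraries (log2 fold change -1.01 ± 0.16 SE, edgeR adjusted p = 0.0134, and 0.0725 and 0.0721 without WT replicate 2 and 3), and reads summed over the whole gene do not show which part of it is disrupted. Xist averaged 0.682 ± 0.376 CPM in STAT6-/- and 468 ± 103 CPM in WT, and the Y-linked Ddx3y averaged 55.0 ± 4.33 and 0.0799 ± 0.0382 CPM (SD, n = 3 each), so the effects of genotype and of sex cannot be told apart. Of the defining genes of colon, Slc26a3, Muc2, Aqp8 and Lypd8 were present at 254 CPM or more in every library. The small-intestinal lactase and sucrase genes Lct and Sis did not exceed 0.532 CPM in any. Among them Slc26a3 had 254 to 1606 CPM in STAT6-/- against 2174 to 3369 CPM in WT. Lypd8 had 11917 to 18133 CPM in STAT6-/- against 19823 to 25773 CPM in WT. Neither passed edgeR's test (adjusted p = 0.0799 and 0.203). The genes named so far are a part of 14 colon and small intestine markers, and others also differed between the groups. The colon gene Car1 had 108 to 224 CPM in STAT6-/- against 1498 to 1919 CPM in WT. The small-intestinal gene Alpi reached 3.38 CPM in STAT6-/- and 0.620 CPM in WT.

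The members parted into 2 patterns. For 7 of the 11 plasma cell genes all 3 STAT6-/- libraries lay above WT. Over all genes tested, the groups did not overlap, in either direction, for 46.5%. Most follicular B cell genes were instead high in STAT6-/- replicate 1 and below WT in STAT6-/- replicate 2. In edgeR's quasi-likelihood test with Benjamini-Hochberg adjustment over all 15066 genes, 6 of the 11 plasma cell members rose and 0 fell at an adjusted p below 0.05. The 6 include Tnfrsf13b, which had 9 reads in WT and was tested through its STAT6-/- libraries. With a filter of 1 CPM in 3 libraries it was not tested, and 5 of 10 rose. Of the 22 follicular members, 2 rose and 0 fell. At an unadjusted p below 0.05, edgeR had 7 plasma cell members higher and 0 lower, and 8 follicular members higher and 1 lower. Of all 15066 genes tested, 3093 were higher and 2974 lower at that unadjusted threshold. At an adjusted p below 0.05 the background was 11.4% of all genes tested higher and 11.5% lower. The median log2 fold change was 1.09 over the plasma cell members, 1.77 over the follicular members and 0.01 over all genes tested. The larger median of the follicular members thus went with fewer calls. The 8 genes that rose span chr19:40928927-40994221 (Blnk), chr9:51213690-51240079 (Pou2af1), chr10:75893398-75895941 (Derl3), chr18:35647265-35650266 (Mzb1), chr10:44437174-44528558 (Prdm1), chr5:43868809-43912374 (Cd38), chr11:61126283-61153170 (Tnfrsf13b) and chrX:7878306-7883432 (Pim2) (GRCm38.p6, RefSeq).

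**Figure D1:**
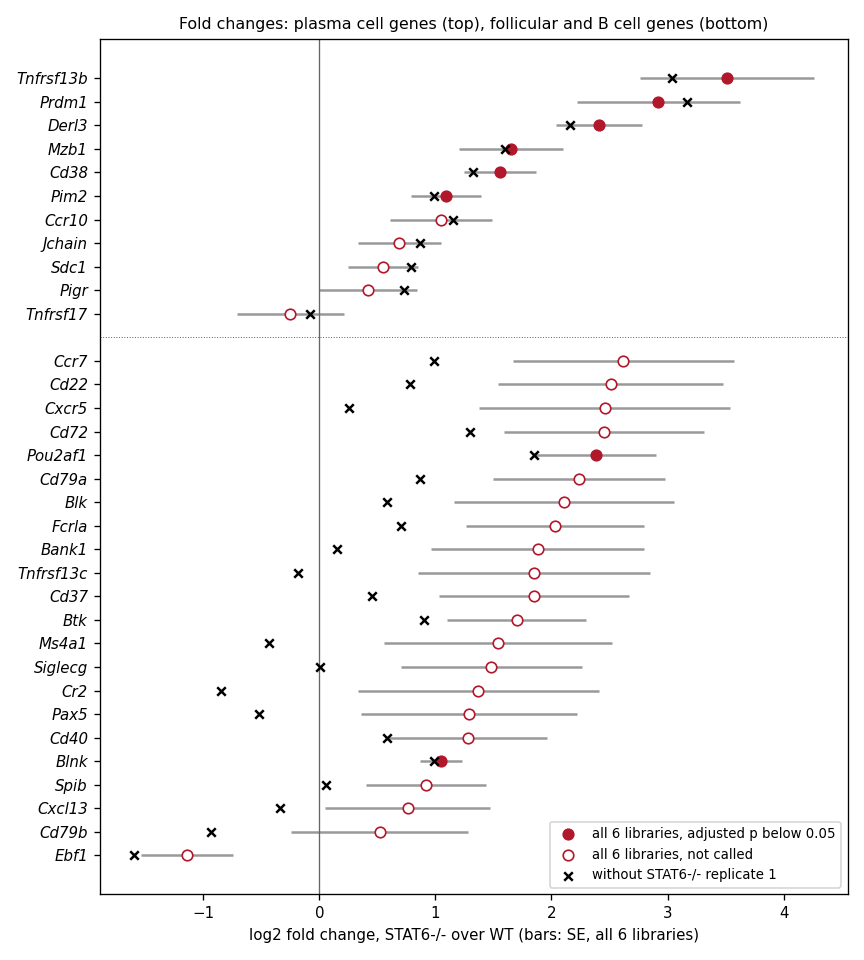
Log2 fold change of STAT6-/- over WT for the 33 members, with the SE of the fit on 6 libraries (filled, adjusted p below 0.05) and the value without STAT6-/- replicate 1 (crosses). Without that library the median of the plasma cell genes was 1.15 in place of 1.09, with 3 called in place of 6, and that of the follicular genes 0.35 in place of 1.77.

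Each STAT6-/- library was also set against the mean of the 3 WT libraries. The median ratio over the 22 follicular members was 7.69 in STAT6-/- replicate 1, 0.629 in replicate 2 and 1.88 in replicate 3. Over the 11 plasma cell members it was 2.49, 2.19 and 2.13, and over all genes tested 0.971, 0.977 and 0.985. The plasma cell medians were alike, but single genes were not: the ratio was 5.08, 2.09 and 15.6 for Prdm1 and 18.7, 5.02 and 11.7 for Tnfrsf13b. In STAT6-/- replicate 1, 21 of the 22 follicular members lay above every WT library. In replicate 2, 4 lay above and 13 below every WT library, and in replicate 3, 14 lay above and 3 below. Of the 11 plasma cell members, 7, 10 and 9 lay above every WT library in replicates 1, 2 and 3. These ratios and counts describe the members by library and were not tested. The share of all genes tested that lay above or below every WT library was not counted for single libraries.

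**Figure D2:**
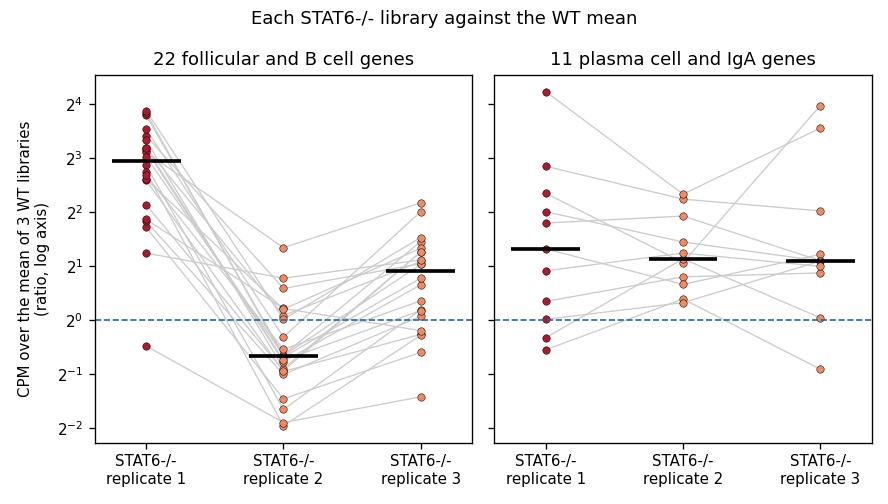
CPM of each member in each STAT6-/- library divided by its mean over the 3 WT libraries (log axis, 1 point per gene, black bar at the median, dashed line at the WT mean, grey lines join a gene). The medians of the follicular genes are 7.69, 0.629 and 1.88, and those of the plasma cell genes 2.49, 2.19 and 2.13.

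STAT6-/- replicate 1 stood apart for the follicular genes. It was the highest of the 6 libraries for 21 of the 22 follicular members, against 20.9% of all genes tested. It exceeded every other library at least 2-fold for 18 of the 22, against 2.18% of all genes tested and 0 of the 11 plasma cell members. This measure was chosen after the values were seen and is a description of 1 library. T cell markers moved with it: 13 of 17 exceeded every other library at least 2-fold in STAT6-/- replicate 1, and their summed level was 204, 47.9 and 79.3 CPM in STAT6-/- replicates 1, 2 and 3, against 35.4 to 45.9 CPM in WT. Of the T cell markers 3 of 17 rose (Zap70, Cd2 and Cd3e) and 0 fell, against 11.4% of all genes higher and 11.5% lower. Their median log2 fold change was 1.86. Without STAT6-/- replicate 1 the median was 0.90 and 0 T cell markers rose, against 6.81% of all genes. Cd3g, the most abundant of them, had a log2 fold change of 0.21 (edgeR adjusted p = 0.789). None of the 17 was at 0 in any library. Myeloid markers had no such peak in replicate 1. They summed to 1782, 640 and 1594 CPM in the STAT6-/- libraries and 543 to 774 CPM in WT, and 0 of 18 exceeded every other library 2-fold in replicate 1. Of the 18, 3 (Cd14, Retnlg and Itgax) rose and 0 fell, against 11.4% of all genes higher and 11.5% lower. Retnlg had 17 reads in WT and was not tested without STAT6-/- replicate 1 or 3, and Itgax had an adjusted p of 0.0993 and 0.0942 in those fits. Lyz2, the most abundant of them, had a log2 fold change of 0.50 (edgeR adjusted p = 0.537). The part of T cells or of the tissue piece in the B cell values was not tested.

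**Figure D3:**
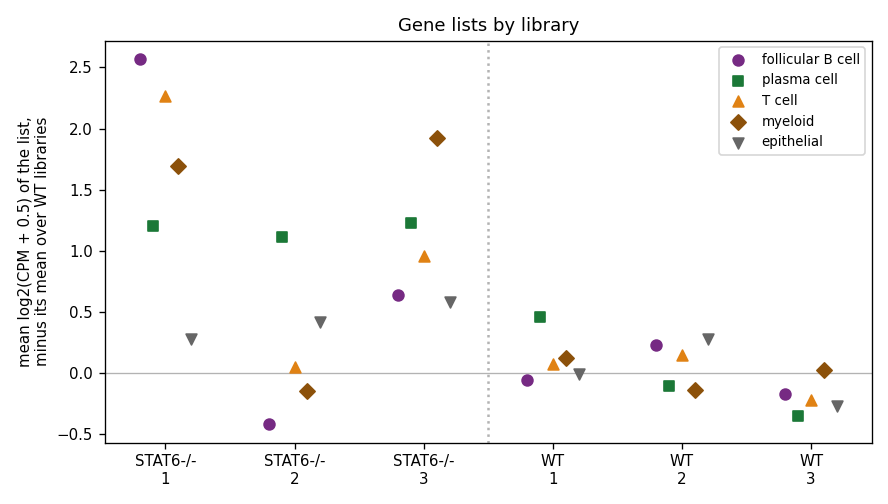
Mean of log2(CPM + 0.5) over each gene list in each library, minus the mean of that list over the WT libraries. The follicular list lies at 2.57, -0.42 and 0.64 in STAT6-/- replicates 1, 2 and 3 and the T cell list at 2.27, 0.05 and 0.96, while the plasma cell list lies between 1.11 and 1.23 in all 3.

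Among the genes of the B cell receptor, Cd79a, its signalling chain, had 86.5, 12.3 and 16.8 CPM in the STAT6-/- libraries, against 9.22, 8.99 and 6.23 CPM in WT. All 3 STAT6-/- values were above WT, yet the first was 5.15 times the next. The log2 fold change of Cd79a was 2.24 ± 0.74 (edgeR adjusted p = 0.0678), and without STAT6-/- replicate 1 it was 0.87. Its partner Cd79b differed, with 44.5, 4.95 and 8.98 CPM in STAT6-/- against 13.9, 16.9 and 10.0 CPM in WT, so that replicates 2 and 3 lay below every WT library. Its log2 fold change was 0.52 ± 0.76 (edgeR adjusted p = 0.630) and turned to -0.93 without replicate 1. Ms4a1, which encodes the surface protein CD20, had 58.4, 2.56 and 9.14 CPM in STAT6-/- and 9.27, 8.18 and 6.69 CPM in WT. Cr2, the complement receptor CD21 of B cells and follicular dendritic cells, had 47.0, 1.83 and 5.81 CPM in STAT6-/- and 6.73, 9.42 and 5.04 CPM in WT. For both genes replicate 1 was high and replicate 2 the lowest of all 6 libraries, and their log2 fold changes of 1.54 and 1.37 turned to -0.43 and -0.85 without replicate 1.

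**Figure D4:**
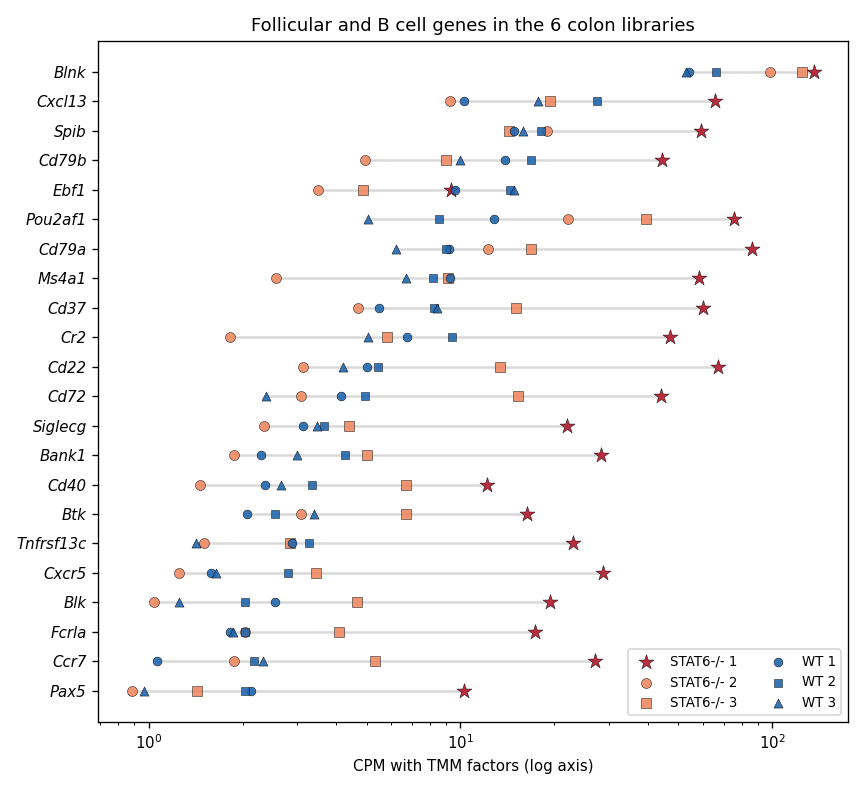
CPM with TMM factors (log axis) of the 22 follicular and B cell members in the 3 STAT6-/- libraries and the 3 WT libraries, 1 marker per library. STAT6-/- replicate 1 (stars) is the highest library for every member but Ebf1, while replicate 2 lies below every WT library for 13 members and replicate 3 above every WT library for 14. The same shares over all genes tested were not counted for replicates 2 and 3.

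The inhibitory receptors of B cells had the same shape. Cd22, a sialic acid receptor that dampens B cell receptor signals, had 67.3, 3.13 and 13.4 CPM in STAT6-/- against 5.02, 5.45 and 4.19 CPM in WT (log2 fold change 2.51 ± 0.97, edgeR adjusted p = 0.101). Cd72, a lectin-like inhibitory receptor, had 44.1, 3.08 and 15.3 CPM in STAT6-/- against 4.14, 4.96 and 2.38 CPM in WT. For both, replicates 1 and 3 lay above every WT library and replicate 2 did not, and the log2 fold changes were 0.78 and 1.30 without replicate 1. Siglecg, another sialic acid receptor, and Fcrla, an intracellular Fc receptor relative, averaged 9.53 ± 10.7 and 7.81 ± 8.31 CPM in STAT6-/- against 3.41 ± 0.265 and 1.92 ± 0.114 CPM in WT. The spread of the STAT6-/- libraries was thus larger than the difference between the means. Cd37, a tetraspanin of B cells, had 60.0, 4.69 and 15.1 CPM in STAT6-/- and 5.49, 8.24 and 8.44 CPM in WT.

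The signalling genes behind the receptor fell into 2 kinds. Blnk, the adaptor that links the kinase SYK to calcium signalling, rose, with 136, 98.6 and 125 CPM in STAT6-/- against 54.1, 66.3 and 53.0 CPM in WT. All 3 STAT6-/- libraries were above WT and close to one another (log2 fold change 1.05 ± 0.18, edgeR adjusted p = 0.0141), and the value was 0.99 without replicate 1 (adjusted p = 0.0317). Blnk stood at 58.5 FPKM in STAT6-/- and 26.8 FPKM in WT, above every other follicular member on this per-length scale, and it is also known in macrophages. Btk, the kinase mutated in X-linked agammaglobulinaemia, Blk, a kinase of the SRC family, and Bank1, a scaffold, had the spread of the receptor genes instead. Btk had 16.3, 3.08 and 6.71 CPM in STAT6-/- against 2.07, 2.54 and 3.40 CPM in WT. Blk had 19.4, 1.04 and 4.65 CPM in STAT6-/- against 2.54, 2.04 and 1.25 CPM in WT. Bank1 had 28.2, 1.88 and 5.02 CPM in STAT6-/- against 2.30, 4.28 and 3.00 CPM in WT. For all 3 genes STAT6-/- replicate 2 lay within or below the WT range, and none passed the test (edgeR adjusted p = 0.0811, 0.143 and 0.172).

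The transcription factors of the lineage did not move as a block. Pou2af1, the coactivator that follicles need to form germinal centres and that plasma cells keep, rose with 75.3, 22.2 and 39.5 CPM in STAT6-/- against 12.8, 8.55 and 5.04 CPM in WT. Every STAT6-/- library exceeded every WT library (log2 fold change 2.38 ± 0.52, edgeR adjusted p = 0.0236), and it was 1.85 without replicate 1 (adjusted p = 0.0471). Pax5, which holds B cell identity and is shut off in plasma cells, had 10.3, 0.887 and 1.43 CPM in STAT6-/- and 2.13, 2.04 and 0.963 CPM in WT, with a log2 fold change of 1.29 that turned to -0.52 without replicate 1. Spib, an ETS factor of B cells and of M cells in the epithelium over follicles, had 59.2, 19.0 and 14.3 CPM in STAT6-/- against 14.9, 18.2 and 15.9 CPM in WT, so replicates 2 and 3 were at the WT level. Ebf1, a founding factor of the B lineage that stromal and fat cells also express, went the other way, with 9.32, 3.49 and 4.86 CPM in STAT6-/- against 9.63, 14.4 and 14.9 CPM in WT. It was the single follicular member whose STAT6-/- libraries were all below WT (log2 fold change -1.14 ± 0.40, edgeR adjusted p = 0.0791), and without replicate 1 it passed the test at -1.60 (adjusted p = 0.0381).

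Homing and survival genes of follicles shared the peak. Cxcl13 had 65.7, 9.23 and 19.4 CPM in STAT6-/- and 10.3, 27.5 and 17.8 CPM in WT. Its receptor gene Cxcr5 had 28.6, 1.25 and 3.43 CPM in STAT6-/- against 1.59, 2.79 and 1.64 CPM in WT, and at 8.32 times the next library it had the largest excess in replicate 1 among the members. Ccr7, the receptor that guides lymphocytes to T cell zones, had 27.0, 1.88 and 5.34 CPM in STAT6-/- and 1.06, 2.17 and 2.32 CPM in WT. All 3 overlapped between the groups, and their log2 fold changes of 0.76, 2.46 and 2.62 were -0.34, 0.26 and 0.99 without replicate 1. Tnfrsf13c, the receptor for the survival factor BAFF, had 22.9, 1.51 and 2.85 CPM in STAT6-/- and 2.89, 3.28 and 1.42 CPM in WT. Cd40, which receives T cell help, had 12.2, 1.46 and 6.71 CPM in STAT6-/- and 2.36, 3.35 and 2.66 CPM in WT. Neither passed the test (edgeR adjusted p = 0.206 and 0.199). The spans of Cxcr5 and Cd72 overlap those of the protein-coding genes Bcl9l and Tesk1, and strand-specific counting is not stated, so that some of their reads are uncertain.

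Without STAT6-/- replicate 1, 15 of the 22 follicular members had a positive log2 fold change and 7 a negative one, with a median of 0.35 against 0.04 over all genes tested. In that fit Pou2af1 and Blnk rose and Ebf1 fell, against 6.81% of all genes higher and 4.94% lower. Of the 11 plasma cell members 3 rose in it (Prdm1, Derl3 and Cd38), in place of 6, with a median of 1.15. Without STAT6-/- replicate 2 the count was larger: 14 of the 22 rose, against 17.9% of all genes higher. DESeq2 on all 6 libraries called 11 higher and Ebf1 lower, against 18.0% of all genes higher and 15.9% lower, and of the plasma cell members the same 6 higher and 0 lower. Over these fits and those with another library left out, from 0 to 14 follicular genes were called higher.

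The 6 plasma cell members that rose were above WT in every STAT6-/- library. Derl3, a factor of the pathway that clears misfolded proteins from the endoplasmic reticulum, had 15.2, 9.96 and 8.56 CPM in STAT6-/- against 2.89, 1.92 and 1.53 CPM in WT. The lowest STAT6-/- library was well above the highest WT library, and the log2 fold change was 2.41 ± 0.37 (edgeR adjusted p = 0.0121). Mzb1, a chaperone that helps plasma cells assemble and secrete immunoglobulin, had 37.8, 41.2 and 23.3 CPM in STAT6-/- against 18.4, 8.49 and 5.72 CPM in WT (log2 fold change 1.65 ± 0.45, edgeR adjusted p = 0.0414). The groups did not overlap, though WT replicate 1 came close to STAT6-/- replicate 3. The groups did not overlap, in either direction, for 7 of the 11 plasma cell members and 4 of the 22 follicular members, against 46.5% of all genes tested. Without STAT6-/- replicate 1 or 2 the adjusted p of Mzb1 was 0.0906 and 0.0564.

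**Figure D5:**
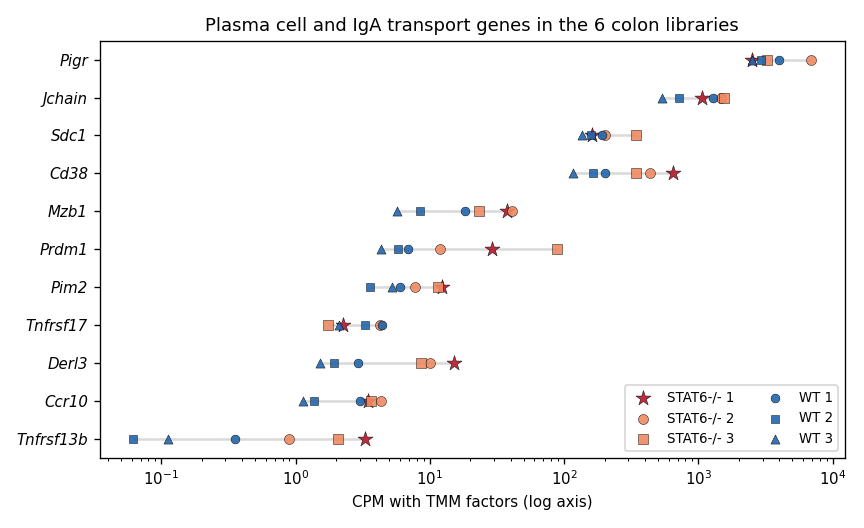
CPM with TMM factors (log axis) of the 11 plasma cell and IgA transport members in the 3 STAT6-/- libraries and the 3 WT libraries, 1 marker per library. The STAT6-/- libraries lie above the WT libraries for 7 genes, among them Derl3, Mzb1 and Cd38, and overlap them for Jchain, Sdc1, Pigr and Tnfrsf17. Over all genes tested, the groups do not overlap, in either direction, for 46.5%.

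Promoter windows of 300 bases (250 before the start and 50 after it, GRCm38.p6, RefSeq) were searched for motifs in every member that had one. Windows were at hand for 25 of the 33 members, 27 in all. The ER stress element (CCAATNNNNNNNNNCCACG, either strand), known from genes of the unfolded protein response, was present in the window of Derl3 and in no other member window, against 0.119% of all 32851 windows. To the octamer (ATGCAAAT, either strand) bind OCT factors and their coactivator encoded by Pou2af1. It was present in 1 of 18 follicular windows (Blnk) and 1 of 9 plasma cell windows (Pim2), against 1.74% of all windows. The EBF1 motif (TCCCNNGGGA) was present in that of Cd22, against 0.904%, and the STAT6 motif (TTCNNNNGAA) in none of the 27, against 6.95%. The interferon motif (GAAANNGAAA) was present in those of Fcrla, Ebf1 and Tnfrsf17, against 3.44%. A match is a run of letters and not a shown binding site. The windows printed below were chosen for holding an ER stress element, an octamer or an EBF1 match, and not by the test between genotypes. The windows of Derl3 (chr10:75893148-75893447, plus strand), Blnk (chr19:40994172-40994471, minus strand), Pim2 (chrX:7878056-7878355, plus strand) and Cd22 (chr7:30878979-30879278, minus strand) are printed in the direction of the gene, with the element, the octamers and the EBF1 match in capitals.
Derl3: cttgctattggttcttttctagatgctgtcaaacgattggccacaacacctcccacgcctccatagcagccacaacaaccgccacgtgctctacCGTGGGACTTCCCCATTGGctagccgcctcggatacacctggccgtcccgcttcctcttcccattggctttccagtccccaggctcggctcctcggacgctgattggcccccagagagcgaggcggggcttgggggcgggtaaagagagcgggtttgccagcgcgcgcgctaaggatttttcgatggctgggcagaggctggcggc
Blnk: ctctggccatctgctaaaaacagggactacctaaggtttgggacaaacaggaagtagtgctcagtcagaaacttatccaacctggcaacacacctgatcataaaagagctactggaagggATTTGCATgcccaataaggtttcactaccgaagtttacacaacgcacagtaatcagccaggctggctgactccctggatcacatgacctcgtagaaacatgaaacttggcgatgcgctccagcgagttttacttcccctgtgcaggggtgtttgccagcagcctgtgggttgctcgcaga
Pim2: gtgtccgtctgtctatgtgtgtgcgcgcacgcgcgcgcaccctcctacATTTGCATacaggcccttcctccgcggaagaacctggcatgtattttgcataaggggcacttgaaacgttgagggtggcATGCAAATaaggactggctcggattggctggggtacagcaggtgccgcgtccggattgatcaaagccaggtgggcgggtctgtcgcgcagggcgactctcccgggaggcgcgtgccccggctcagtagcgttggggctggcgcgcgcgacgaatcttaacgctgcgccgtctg
Cd22: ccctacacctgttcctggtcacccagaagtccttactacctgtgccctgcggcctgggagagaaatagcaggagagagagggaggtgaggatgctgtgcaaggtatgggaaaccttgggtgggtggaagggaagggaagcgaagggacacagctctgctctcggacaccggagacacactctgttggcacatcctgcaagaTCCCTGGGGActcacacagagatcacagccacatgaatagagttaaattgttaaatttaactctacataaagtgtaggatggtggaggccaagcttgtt

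Pim2, a survival kinase of plasma cells, has 2 octamers in its window, on opposite strands, 202 and 123 bases before the start. It had 12.3, 7.77 and 11.4 CPM in STAT6-/- against 5.97, 3.59 and 5.21 CPM in WT. The groups did not overlap and the log2 fold change was 1.09 ± 0.30 (edgeR adjusted p = 0.0426), while the adjusted p was 0.102 without STAT6-/- replicate 1, 0.0718 without STAT6-/- replicate 3 and 0.0753 without WT replicate 1. The octamer of Blnk lies 130 bases before its start and the EBF1 match of Cd22 49 bases before. The start used for Cd22 lies inside the span of that gene (chr7:30865404-30880342), not at its edge. The ER stress element of Derl3 lies on the opposite strand, from 156 bases before the start.

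Prdm1, the factor BLIMP1 that turns B cells into plasma cells and is also known in epithelial and T cells, had 28.9, 11.9 and 88.4 CPM in STAT6-/- against 6.91, 5.76 and 4.36 CPM in WT. All STAT6-/- libraries exceeded WT, and replicate 3 did so most, as it did for Jchain and Sdc1. The log2 fold change was 2.92 ± 0.70 (edgeR adjusted p = 0.0299). It was 1.89 without STAT6-/- replicate 3 (adjusted p = 0.0311), and the adjusted p was 0.0730 without WT replicate 1. Cd38 encodes an ectoenzyme of leukocytes and was counted here with the plasma cell members. Which cells gave its reads was not tested. It had 642, 436 and 341 CPM in STAT6-/- against 201, 163 and 116 CPM in WT, a clear gap between the groups (log2 fold change 1.56 ± 0.31, edgeR adjusted p = 0.0184).

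The 2 other receptors for the TNF family ligands BAFF and APRIL behaved differently from each other. Tnfrsf13b, which encodes TACI, had 3.31, 0.887 and 2.06 CPM in STAT6-/- against 0.354, 0.0620 and 0.113 CPM in WT. These are 127 reads over the STAT6-/- libraries and 9 over WT, and the gene passed the filter on low counts through its STAT6-/- libraries. Its log2 fold change was 3.51 ± 0.75 (edgeR adjusted p = 0.0223), 3.04 without STAT6-/- replicate 1 (adjusted p = 0.0544) and 4.46 without WT replicate 1, and its span overlaps that of Usp22. Tnfrsf17, which encodes BCMA, the receptor of mature plasma cells, had 2.24, 4.28 and 1.74 CPM in STAT6-/- against 4.43, 3.28 and 2.10 CPM in WT. The groups overlapped (log2 fold change -0.25 ± 0.46, edgeR adjusted p = 0.709). Its reads numbered 163 over the STAT6-/- libraries and 165 over WT.

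The most abundant genes of the plasma cell axis, apart from Cd38, did not pass the test. Jchain had 1070, 1469 and 1548 CPM in STAT6-/- against 1292, 711 and 532 CPM in WT, where replicate 1 lay within the STAT6-/- range. Its log2 fold change was 0.69 ± 0.36 (edgeR adjusted p = 0.191), and WT replicate 1 was the highest WT library for each of the 11 plasma cell members. Pigr, the epithelial IgA carrier, had 2506, 6871 and 3240 CPM in STAT6-/- and 3977, 2929 and 2515 CPM in WT (log2 fold change 0.42 ± 0.42, edgeR adjusted p = 0.478). Replicate 2 set its STAT6-/- mean, and without that library the log2 fold change was -0.10. Sdc1, the surface proteoglycan CD138 of plasma cells and of gut epithelium, had 162, 202 and 343 CPM in STAT6-/- and 191, 158 and 135 CPM in WT (edgeR adjusted p = 0.215). Ccr10, the receptor that guides IgA plasma cells to the gut, had 3.45, 4.33 and 3.65 CPM in STAT6-/- against 3.01, 1.36 and 1.13 CPM in WT. Its groups did not overlap, but it did not pass the test (log2 fold change 1.05 ± 0.44, edgeR adjusted p = 0.117), and Cntnap1 overlaps it.

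On the per-length scale Pigr was the highest member, at 1093 FPKM in STAT6-/- and 789 FPKM in WT, followed by Jchain at 653 and 390.0 FPKM. Cd38 came next at 162 FPKM in STAT6-/-, against 51.4 FPKM in WT, a level close to the 51.1 FPKM of Sdc1. Cd79a stood at 31.3 FPKM in STAT6-/- and 6.02 FPKM in WT, and Mzb1 at 38.6 and 11.7 FPKM. The order of Cd79a and Cd79b differed between the libraries: Cd79a was the higher in STAT6-/- replicates 1, 2 and 3 (72.2 against 39.5, 9.28 against 3.99 and 12.4 against 7.06 FPKM), and Cd79b in WT replicates 1, 2 and 3 (11.2 against 6.90, 12.6 against 6.30 and 8.36 against 4.87 FPKM).

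Genes of the secretory pathway and of plasma cell differentiation outside the members were set beside them. Of 27 tested, 10 rose and 0 fell, against 11.4% of all genes higher and 11.5% lower. Their median log2 fold change was 0.71. Txndc11, a thioredoxin-like protein of the endoplasmic reticulum, had 52.0, 40.9 and 41.3 CPM in STAT6-/- against 21.8, 17.4 and 17.0 CPM in WT (log2 fold change 1.26 ± 0.18, edgeR adjusted p = 0.0108). Edem2, which directs misfolded glycoproteins to degradation, and Sdf2l1, a chaperone cofactor, rose by 1.10 ± 0.16 and 1.78 ± 0.28 on the log2 scale. Hsp90b1, the most abundant of them, averaged 879 ± 239 CPM in STAT6-/- and 662 ± 41.1 CPM in WT (edgeR adjusted p = 0.241). These genes act in every secretory cell, goblet cells included, and of 15 epithelial markers 3 rose (Vil1, Krt20 and Elf3) and 0 fell, against 11.4% of all genes higher, with a median log2 fold change of 0.67. Lgals4, the most abundant of these markers, was below WT in all 3 STAT6-/- libraries and had a log2 fold change of -0.92 (edgeR adjusted p = 0.0692). At an unadjusted p below 0.05, edgeR had 15 secretory genes higher and 1 lower, and 8 epithelial markers higher and 2 lower. It had 10 T cell markers higher and 0 lower, and 8 myeloid markers higher and 0 lower. Of all 15066 genes tested, 3093 were higher and 2974 lower at that threshold. The summed epithelial markers were 18836 to 30279 CPM in STAT6-/- and 17253 to 23032 CPM in WT, ranges that overlap. The part of the epithelium in these differences was not tested.

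Other B cell and germinal centre genes mixed both patterns. Of 31 tested, 8 rose and Cd24a fell, against 11.4% of all genes higher and 11.5% lower. The median log2 fold change was 1.25. The 3 with the smallest p were Ciita, the master regulator of MHC class II, at 51.5 ± 25.4 CPM in STAT6-/- against 4.04 ± 1.60 CPM in WT, the kinase gene Syk at 151 ± 48.9 against 35.7 ± 3.62 CPM (SD, n = 3 each, edgeR adjusted p = 0.00965 and 0.00971), and the transcription factor gene Irf8, 5.67-fold higher in STAT6-/- (edgeR adjusted p = 0.0129). All 3 are shared with macrophages or dendritic cells. Cd24a, which epithelial cells also express and which was the most abundant of the list, averaged 131 ± 37.0 CPM in STAT6-/- and 249 ± 53.6 CPM in WT. In STAT6-/- replicate 1, 17 of the 32 listed genes exceeded every other library at least 2-fold, against 2.18% of all genes tested. Without that library the median was 0.16 and 4 of 31 rose, against 6.81% of all genes.

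Genes that feed, place or hold B cells and plasma cells were counted in the same way. Of 32 tested, 7 rose and Il7 fell, against 11.4% of all genes higher and 11.5% lower. The median log2 fold change was 0.87. The libraries differed here too: the median ratio to the WT mean was 3.16, 0.836 and 1.84 in STAT6-/- replicates 1, 2 and 3. In replicate 1, 9 genes exceeded every other library at least 2-fold, against 2.18% of all genes tested. Without STAT6-/- replicate 1 the median was 0.41, and 6 rose and 1 fell, against 6.81% and 4.94% of all genes. Tnf, needed for follicle formation, had 23.6, 20.9 and 22.6 CPM in STAT6-/- against 3.49, 1.24 and 1.13 CPM in WT (log2 fold change 3.51 ± 0.46, edgeR adjusted p = 0.00971). Itgb7, a chain of the gut-homing integrin, had 34.6, 12.7 and 30.7 CPM in STAT6-/- against 6.32, 5.14 and 5.95 CPM in WT (edgeR adjusted p = 0.0156). Tnfsf13b, which encodes BAFF, had 26.4, 14.8 and 20.4 CPM in STAT6-/- against 9.27, 8.55 and 6.80 CPM in WT (log2 fold change 1.32 ± 0.27, edgeR adjusted p = 0.0195). For all 3 genes the groups did not overlap. Ccl21a, the most abundant of the list, averaged 157 ± 44.2 CPM in STAT6-/- and 218 ± 55.9 CPM in WT (edgeR adjusted p = 0.255).

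All 8 calls among the members were lost when WT replicate 2 or 3 was left out. Without either of these libraries none of the 22 follicular and none of the 11 plasma cell members passed edgeR's test, with adjusted p from 0.0656 to 0.150 and from 0.0722 to 0.134 for the 8. Over all genes 21 and 12 were then higher. At an unadjusted p below 0.05, 4 and 3 follicular and 6 and 6 plasma cell members were higher by edgeR. Over all genes 2219 and 2115 were higher at that unadjusted threshold. The 8 fold changes kept their direction. The calls named in the other lists were likewise lost in both fits, those of Tnf (adjusted p = 0.0641 and 0.0675) and Ciita (0.0542 and 0.0675) included, except that Car1 passed without WT replicate 2 (0.0461) and not without WT replicate 3 (0.0606).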

How the data were processed

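Colon RNA of 3 STAT6-/- and 3 WT libraries was read from 1 table per library. The expected counts deposited by the authors are estimated reads per RefSeq transcript, not scaled between libraries, and the FPKM deposited beside them correct, per the file headers, for transcript length and library size. The submitters' processing notes name mm10 as build and Bowtie2 2.2.5 and RSEM 1.2.12 as tools. No FPKM below 0.01 is listed, so an unlisted transcript counted as 0.

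For each gene the expected counts were added up and rounded. Of 28238 transcripts, 27986 took a gene from RefSeq (GRCm38.p6), 149 from GENCODE M21, and 103 with 0.167% of the counts stayed unnamed. The test between genotypes was the quasi-likelihood test of edgeR 4.0.16, run in R 4.3.3 with TMM factors, filterByExpr and robust estimation, at an adjusted p below 0.05. CPM are TMM-scaled, errors beside means are SD of 3 libraries, and the SE is the log2 fold change over the square root of F. The test was tested on simulated data.

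The members and lists were chosen with earlier results of these data known. All 33 members are described. Of each other list 3 genes are named by smallest p and 1 by highest FPKM, and further genes were chosen after their values were seen. Alternatives were RLE factors, library size, no filter, 1 CPM in 3 libraries, DESeq2 1.42.0, limma-voom (limma 3.58.1), limma on log2 FPKM (pseudocount 1 or 0.1), a fit blocked by replicate number, and each library left out in turn. Immunoglobulin genes were not analysed here. Figures used matplotlib 3.10.9.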

Additional observations from a re-analysis of the deposited data

How the results depend on the processing

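The 22 follicular members called higher numbered 2 in the fit reported, 11 with DESeq2 and from 0 to 14 with 1 library left out, those called lower 0, 1 with DESeq2 and from 0 to 1. The 11 plasma cell members called higher numbered 6, and from 0 to 5 with 1 library left out. The median log2 fold change of the follicular members was 1.77 and ran from 0.35 to 2.26 with 1 library left out, while limma-voom gave 1.08 and log2 FPKM 0.88 (plus 1) and 1.06 (plus 0.1). That of the plasma cell members was 1.09 and ran from 0.90 to 1.60. All genes called higher numbered 1718, 2713 with DESeq2 and 12 to 2750 with 1 library left out, those lower 1731 and 6 to 2440. The log2 fold change of Cd79b turned to -0.03 in limma-voom and -0.02 in log2 FPKM plus 0.1. With 1 library left out it ran from -0.93 to 1.02 for Cd79b, -0.43 to 2.11 for Ms4a1, -0.52 to 1.81 for Pax5, -0.85 to 1.94 for Cr2, -0.34 to 1.24 for Cxcl13 and -0.18 to 2.39 for Tnfrsf13c, the lowest each time being the fit that omits STAT6-/- replicate 1. That of Tnfrsf17 ran from -0.68 to 0.04 (0.03 when WT replicate 1 is omitted) and that of Pigr from -0.10, when STAT6-/- replicate 2 is omitted, to 0.73. The cause was not tested.

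Prdm1 was not called with limma-voom (adjusted p = 0.0970) or log2 FPKM plus 1 (0.0574). The replicate numbers are shared by the titles and pair nothing in the design. The correlations of same-numbered libraries' deviations were 0.028, 0.044 and 0.145, not all over 0.1. A replicate block gave 1219 genes higher and 1445 lower, 2 follicular and 5 plasma cell members higher, medians of 1.04 and 1.16, -0.07 for Cd79b and an adjusted p of 0.0643 for Prdm1.

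With 3 libraries a group, changes of low genes such as Tnfrsf13b (9 WT reads) are imprecise. With a filter of 1 CPM in 3 libraries that gene was not tested.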

Other observations

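Genes of follicular stroma and of the epithelium over follicles gave further values, chosen after they were seen. Clu and Mfge8, known in follicular dendritic cells and in other cells, had 309, 58.1 and 53.5 CPM and 217, 53.8 and 76.6 CPM in the STAT6-/- libraries, against 66.6 to 93.2 and 58.6 to 96.8 CPM in WT, so that STAT6-/- replicate 1 was the highest library for both. Neither passed edgeR's test (adjusted p = 0.368 and 0.372). Among markers of M cells and the follicle-associated epithelium, 2 of 11 rose (Pglyrp1 and Tnfrsf11a) and 0 fell, with a median log2 fold change of 0.61. Over all genes tested 11.4% were higher and 11.5% lower. Gp2, the M cell uptake receptor, had 8.30, 17.6 and 0.951 CPM in STAT6-/- against 38.4, 51.2 and 78.1 CPM in WT, and so lay below WT in all 3 but did not pass (log2 fold change -2.64 ± 0.84, edgeR adjusted p = 0.0611). Fcer2a, a B cell gene that interleukin-4 induces through STAT6, had 32.2, 1.30 and 3.38 CPM in STAT6-/- against 3.49, 5.39 and 3.34 CPM in WT, and so was high in the same library as the other B cell genes. Of the colon and small intestine markers Car1 fell, to 159 ± 59.4 CPM in STAT6-/- against 1673 ± 220.0 CPM in WT (edgeR adjusted p = 0.00732). Alpi, with 21 reads in WT, passed edgeR's test with an adjusted p just under the threshold (log2 fold change 2.38 ± 0.70). STAT6-/- replicate 2 had 0.626 CPM, close to 0.620 CPM in WT replicate 2, and the call was lost in 5 of the 6 fits with 1 library left out (adjusted p up to 0.166). The other 10 of the 12 tested did not pass, among them Slc26a3 (-1.75, adjusted p = 0.0799) and Lypd8 (-0.57, adjusted p = 0.203). The median log2 fold change of the list was 0.27.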
